A study of Mus musculus with 6 samples.

Results

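The genes described here are 48 genes of mitosis: cyclins and kinases of the G2 and M phases, the spindle checkpoint, centromere and kinetochore proteins, kinesins, and proteins of the spindle and of cell division. They were chosen by name, with polo-like kinases left out. Of the 48, 46 had an array row that names a single gene, and these 46 are set among 22180 genes tested. Sgol1 was found under its current symbol Sgo1. Ccnb1 has no row in the platform annotation used here and was not analysed. Ccnf shares its only row with the miRNA gene Mir5134. That row read 9.93, 9.85 and 9.86 on the log2 scale in the control samples and 9.68, 9.64 and 9.59 with miR-302. It was not tested, since the genes of the row cannot be told apart.

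All samples were mouse embryonic stem cells (ESCs) with the genotype Dgcr8-/-. Dgcr8 is the RNA-binding partner of the nuclease Drosha, and without it primary miRNA transcripts are not cut, so the cells of both groups lack canonical miRNAs of their own. The control group, Dgcr8-/--shctrl, had a control hairpin, and the other group had the construct labelled sh-miR-302, described in a further label as mimics of miR-302. Total RNA of 3 samples a group was measured on single-colour arrays, which the series' design text describes as biologically independent. Which members of the miR-302 family were made, the promoter that drove them, the time of expression and the number of cell clones are not stated in the labels. Levels are log2 values after RMA (robust multi-array average) normalization, and a change is the miR-302 mean minus the control mean.

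Cells enter mitosis when cyclin B binds the kinase Cdk1 and phosphatases of the Cdc25 family remove the phosphates that hold it inactive. Kinetochores then tie the chromosomes to the spindle, the spindle checkpoint waits for every chromosome to be attached, and the anaphase-promoting complex (APC/C) ends the wait by marking securin and cyclin B for destruction. Transcripts of many of these proteins are made together late in the cell cycle, through promoter elements that the MuvB complexes with B-Myb and Foxm1 bind. ESCs divide quickly with a short G1 phase, and miRNAs of the miR-302 and miR-290 families are known to speed their passage from G1 to S phase.

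The mature 3p strands of the miR-302 family are shown for their seeds; which of them the construct made is not stated. Those of miR-302b, miR-302c and miR-302d were matched in RefSeq (GRCm38.p6), in a cluster on the plus strand of chromosome 3. The 3p strand of miR-302a was not found in the reference used. The matched strands are printed 5′ to 3′ with the seed, bases 2 to 8, in capitals.
mmu-miR-302b-3p, chr3:127545275-127545297: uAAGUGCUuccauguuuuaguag
mmu-miR-302c-3p, chr3:127545406-127545427: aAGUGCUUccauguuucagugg
mmu-miR-302d-3p, chr3:127545665-127545687: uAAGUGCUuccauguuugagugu
The strands of miR-302b and miR-302d share the seed AAGUGCU. The seed of miR-302c as annotated is AGUGCUU. Its annotated strand begins a base later, so this is the same stretch of sequence shifted by a base.

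Promoter sequence was read because the genes are known to be transcribed together. RefSeq promoters (GRCm38.p6), each 250 bases before to 50 bases after a transcript start, were matched for 38 of the 46 genes. They were searched on both strands for the cell cycle genes homology region (CHR), the element bound by MuvB complexes, as TTTGAA or TTCGAA, and for CCAAT, the box bound by NF-Y. Matches were counted wherever they fell, so matches of different motifs may overlap. A CHR match was found in 27 of the 38 genes (71.1%), counting a gene if any of its promoters held one, and in 21.7% of all 27025 genes with a promoter (19.2% of 32851 promoters). CCAAT was found in 27 of the 38 (71.1%) and in 41.1% of all genes (37.4% of promoters). Both were found in 24 genes (63.2%), against 8.61% of all genes and 7.52% of promoters. The windows of 30 bases below each hold a CHR match, in capitals. They are from 5 genes that fell with miR-302 and from Cdk1 and Cdc20, which were not called. Each is read on the strand of its gene, and several begin or end within the first exon.
Ccnb2, chr9:70421533-70421562, minus strand: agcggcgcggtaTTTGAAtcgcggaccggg
Prc1, chr7:80294434-80294463, plus strand: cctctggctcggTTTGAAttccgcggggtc
Ckap2, chr8:22185903-22185932, minus strand: gctttgttcgatTTTGAAatttctcgccgg
Bub1b, chr2:118598011-118598040, plus strand: tctctccctgggTTCGAAggcttgtcttag
Cdc25b, chr2:131186943-131186972, plus strand: ccgctgttatttTTCGAAtatataaggagg
Cdk1, chr10:69352910-69352939, minus strand: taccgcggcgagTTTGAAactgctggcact
Cdc20, chr4:118437344-118437373, minus strand: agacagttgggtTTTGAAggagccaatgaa
In Cdk1 and Cdc20 the match shown begins 15 and 18 bases before the start, and Cdk1 has another TTTGAA 71 bases before it. In Bub1b the match shown begins 188 bases before the start, and a TTTGAA begins at base 41 of the transcript. In Ccnb2 the match shown begins at base 5 of the transcript, and a second TTTGAA begins 167 bases before the start. In Ccnb2 3 CCAAT boxes also begin 87, 54 and 21 bases before the start. The matches are descriptions of these windows. Of the genes that fell with miR-302, 7 had a promoter and 5 of these a CHR, and of the other 31 members with a promoter 22 had one.

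The array medians over all rows lay between 5.60 and 5.62, and with 3 arrays a group the precision of each value is limited. Pluripotency markers were high: Nanog read 12.85 ± 0.03 (SD, n = 3) in controls and 12.74 ± 0.15 with miR-302. None of 9 measured ESC markers passed the test, and 6 had a lower and 3 a higher mean with miR-302. Sox2 was 12.01 ± 0.03 and 11.68 ± 0.20 without overlap (adjusted p = 0.0891), and Pou5f1 9.28 ± 0.05 and 9.32 ± 0.14. The summed linear level of the 9 was 28276 to 28879 in control arrays. With miR-302 it was 32650 in replicate 1, 25622 in replicate 2 and 25704 in replicate 3. Dppa5a, the lowest of these 9, lay below the median level of all genes. Dgcr8 shares its row with Mir1306, and that row read 8.25, 8.20 and 8.29 in controls and 8.06, 8.09 and 7.97 with miR-302. Both groups are labelled Dgcr8-/-, and whether the row's probes lie in the deleted part is not known here, so it does not check the labels. Ccnd2, which encodes the G1 cyclin D2, was 8.92-fold lower with miR-302 (adjusted p = 0.000124). Among markers of other cell types, mainly those of trophectoderm differed between the groups. Over all genes tested, 9.25% were called lower and 7.18% higher. Of 10 trophectoderm markers 7 rose, and the median log2 change of the 10 was 1.42. Their summed level on the linear scale was 1367 to 1455 in control arrays, and with miR-302 it was 3735 in replicate 1, 9702 in replicate 2 and 9423 in replicate 3. Most of the sum with miR-302 came from the keratin genes Krt8 and Krt18. Krt8 was 8.22 ± 0.11 (SD, n = 3) in controls and 11.54 ± 0.96 with miR-302, and Krt18 7.09 ± 0.06 and 11.12 ± 1.09. Of 8 primitive endoderm markers 3 rose and 1 fell (summed level 413 to 438 in control arrays and 443 to 485 with miR-302), and of 9 fibroblast markers 1 rose and 1 fell (465 to 493 and 527 to 592). No marker is listed at 0, and no detection calls were used. The part of these markers in the changes below was not tested. In bulk RNA, fewer cells in mitosis and less mitotic RNA per cell cannot be told apart.

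With miR-302, 8 of the 46 mitosis genes fell and 1 rose (limma, adjusted p under 0.05 over all genes). Those that fell were the Cdk1-activating phosphatase gene Cdc25b, the securin gene Pttg1, the microtubule-bundling genes Nusap1 and Prc1, the cyclin gene Ccnb2, the checkpoint gene Bub1b, the spindle gene Ckap2 and the kinetochore gene Spc24. Cdc25a, a phosphatase gene of the same family as Cdc25b, rose. All of these but Cdc25b changed by less than 1.5-fold. Among all genes tested, 9.25% fell and 7.18% rose, and among genes of at least median level, where all 46 mitosis genes lie, 15.9% fell and 10.9% rose. In this fit the share of mitosis genes that fell, 17.4%, was near the 15.9% of genes of at least median level. That nearness depends on the fit. With the test itself limited to genes of that level, 17 of the 46 were called lower, against 22.4% of the genes tested. The share that rose with all genes tested was 2.17%. The upper set of genes is still not matched in level, since the median gene of the 46 stood at the 93.4th percentile of level and that of the set at the 75.0th.

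The small differences lay mostly on one side. Of the 46 genes, 38 had a lower mean with miR-302, 6 a higher mean and 2 equal means. The median log2 change was −0.12, against 0.01 over all genes and −0.03 over genes of at least median level, of which 53.8% had a lower mean. The median difference of the 46 genes from their control means was −0.09 in miR-302 replicate 1, −0.10 in replicate 2 and −0.18 in replicate 3, and −0.01 to 0.01 in the control arrays. Every miR-302 array was thus lower than every control array by this measure. In 24 genes (52.2%) all miR-302 arrays lay below all control arrays, in 4 (8.70%) above them, and in 18 the groups overlapped. Over all genes the groups were apart in this way for 19.0% downward and 16.8% upward, and over genes of at least median level for 30.6% and 23.1%. Changes of this size are close to limma's SE in this fit, 0.06 to 0.16 over the 46 genes. That SE is moderated over all genes tested, of all levels, so it is not the precision of these genes alone. Their median SD was 0.05 in controls and 0.07 with miR-302.

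**Figure D1:**
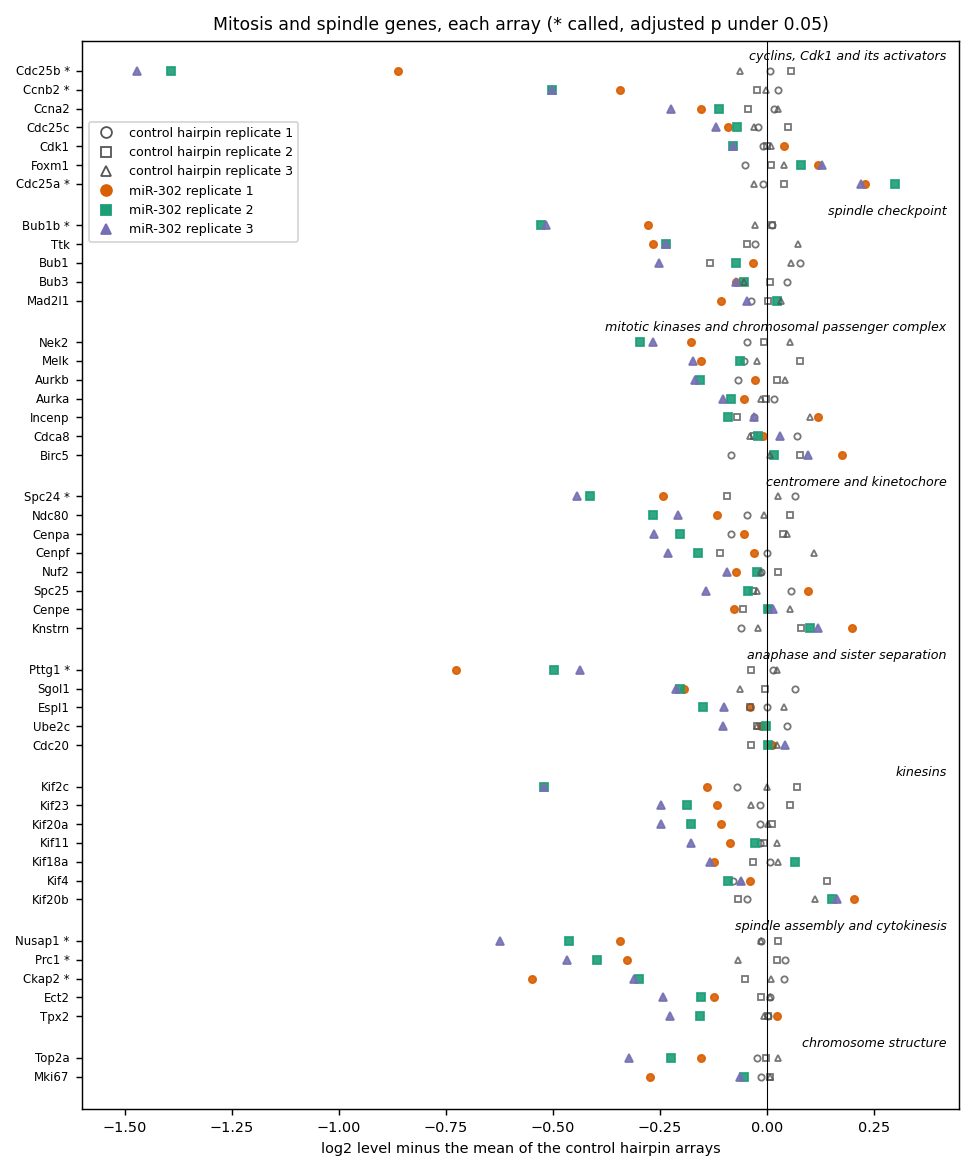
Log2 level of each mitosis and spindle gene in each of the 6 arrays, as the difference from its mean over the 3 control hairpin arrays (x axis), with genes grouped by role on the y axis. Open grey symbols are control arrays, filled symbols are miR-302 arrays and a star marks the 9 called genes. Most filled symbols lie left of 0, most of them by less than 0.5, and Cdc25b lies farthest left in all 3 miR-302 arrays.

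By role, the counts below are descriptions of few genes each, beside 15.9% lower and 10.9% higher over genes of at least median level. The genes that start mitosis held both the largest fall and the one rise. Cdc25b, whose product activates Cdk1 at centrosomes at the onset of mitosis, read 9.38, 9.43 and 9.31 in control replicates 1, 2 and 3 and 8.51, 7.98 and 7.90 with miR-302. All miR-302 arrays were lower than all control arrays, and replicate 1 was the least low. The means were 9.37 ± 0.06 and 8.13 ± 0.33 (SD, n = 3), so the level was 2.37-fold lower with miR-302 (log2 change −1.24 ± 0.16 SE, adjusted p = 0.00437). The call held without any 1 of the 6 arrays, and leaving out miR-302 replicate 1 gave a change of −1.43. Cdc25a, which acts from the G1/S transition to mitosis, read 9.92, 9.97 and 9.90 in controls and 10.16, 10.23 and 10.15 with miR-302. The groups did not overlap, and the log2 change was 0.25 ± 0.07 (SE), 1.19-fold higher (adjusted p = 0.0465). The call held without miR-302 replicate 1 (adjusted p = 0.0375). Without any 1 of the others the adjusted p lay between 0.104 and 0.149, and with arrays centred on their median it was 0.0504. Cdc25c, the third phosphatase gene of the family, read 8.96, 9.03 and 8.95 in controls and 8.89, 8.91 and 8.86 with miR-302, and was not called (adjusted p = 0.399).

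Among the cyclins, Ccnb2, a B-type cyclin that partners Cdk1, read 12.42, 12.37 and 12.39 in controls and 12.05, 11.89 and 11.89 with miR-302. All miR-302 arrays were lower by over 0.3. The log2 change was −0.45 ± 0.07 (SE), 1.37-fold lower (adjusted p = 0.00969), and the call held without any 1 array. Ccna2, which encodes cyclin A2 of S and G2 phase, was 12.03 ± 0.04 (SD, n = 3) in controls and 11.87 ± 0.06 with miR-302 (adjusted p = 0.163). Cdk1, the kinase itself, read 11.59, 11.60 and 11.61 in controls and 11.64, 11.52 and 11.52 with miR-302, so the groups overlapped (log2 change −0.04 ± 0.07 SE, adjusted p = 0.756). Foxm1, the transcription factor of the late cell cycle, was 9.75 ± 0.05 and 9.86 ± 0.03 (adjusted p = 0.320).

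Of the 5 spindle checkpoint genes, 1 fell and 4 were not called. Bub1b, which encodes the checkpoint kinase-like protein BubR1, read 11.07, 11.07 and 11.03 in controls and 10.78, 10.53 and 10.54 with miR-302. The groups did not overlap, and the log2 change was −0.44 ± 0.09 (SE), 1.36-fold lower (adjusted p = 0.0186). Leaving out miR-302 replicate 1 gave −0.52, and leaving out any 1 of the others ended the call, with adjusted p from 0.0643 to 0.0711. Ttk, which encodes the checkpoint kinase Mps1, was near the threshold, with 9.97 ± 0.06 in controls and 9.72 ± 0.02 with miR-302 (adjusted p = 0.0529). Bub1, Bub3 and Mad2l1 had overlapping groups and log2 changes from −0.12 to −0.04.

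None of the 7 genes of mitotic kinases and the chromosomal passenger complex was called. The smallest p was that of Nek2, a centrosome kinase gene, which read 10.20, 10.24 and 10.30 in controls and 10.07, 9.95 and 9.98 with miR-302, without overlap (log2 change −0.25 ± 0.07 SE, adjusted p = 0.0600). It was called without miR-302 replicate 1 (log2 change −0.28, adjusted p = 0.0289). Aurka, the spindle pole kinase gene, was 11.33 ± 0.02 and 11.25 ± 0.03, and Melk 10.05 ± 0.07 and 9.92 ± 0.06. The passenger complex genes are Aurkb, its kinase, and Incenp, Birc5 and Cdca8, its targeting subunits. Incenp and Cdca8 had equal means in both groups, 9.64 and 9.42. Aurkb was 11.43 ± 0.06 and 11.31 ± 0.08, and Birc5 9.50 ± 0.08 and 9.60 ± 0.08.

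One of 8 centromere and kinetochore genes fell. Spc24, a subunit of the Ndc80 complex that binds microtubules, read 9.08, 8.92 and 9.04 in controls and 8.77, 8.60 and 8.57 with miR-302. The lowest control array lay above the highest miR-302 array, and the log2 change was −0.37 ± 0.09 (SE), 1.29-fold lower (adjusted p = 0.0314). Leaving out any 1 array except miR-302 replicate 1 ended the call, with adjusted p from 0.0599 to 0.110. The other 3 subunits of that complex were not called. Ndc80 was 10.47 ± 0.05 and 10.27 ± 0.08 (adjusted p = 0.124), Nuf2 10.41 ± 0.02 and 10.35 ± 0.04 (adjusted p = 0.574), and Spc25, the direct partner of Spc24, 8.63 ± 0.05 and 8.60 ± 0.12 (adjusted p = 0.857). Whether the subunits differ in their change was not tested. The log2 changes of Cenpa, the centromeric histone gene, Cenpe and Cenpf lay between −0.17 and −0.02 with overlapping groups, and that of Knstrn, which encodes kinastrin, was 0.14 ± 0.07 (SE).

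In the group of anaphase and sister separation, Pttg1 fell and 4 genes were not called. Pttg1 encodes securin, the inhibitor of separase, and had the lowest level of the 46 genes. It read 7.92, 7.87 and 7.93 in controls and 7.18, 7.41 and 7.47 with miR-302. The groups did not overlap, and here replicate 1 was the lowest of the miR-302 arrays. The log2 change was −0.55 ± 0.09 (SE), 1.47-fold lower (adjusted p = 0.00995). The call held without any 1 array, and leaving out miR-302 replicate 1 gave a change of −0.47. Espl1, which encodes separase, was 9.69 ± 0.04 and 9.59 ± 0.06 (adjusted p = 0.404), and Sgol1, the protector of centromeric cohesion, 9.94 ± 0.07 and 9.74 ± 0.01 (adjusted p = 0.0928). Cdc20, the APC/C activator, read 11.88, 11.83 and 11.89 in controls and 11.88, 11.87 and 11.91 with miR-302. Ube2c, the APC/C's ubiquitin-conjugating enzyme gene, was 11.39 ± 0.04 and 11.35 ± 0.06. The groups overlapped for both.

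None of the 7 kinesin genes, which encode motors of the spindle, was called. Kif2c, the microtubule depolymerase MCAK, read 10.66, 10.80 and 10.73 in controls and 10.59, 10.21 and 10.21 with miR-302. Replicate 1 lay just below the lowest control array, and replicates 2 and 3 well below it. The log2 change was −0.39 ± 0.12 (SE; adjusted p = 0.0699) with all arrays and −0.52 without replicate 1, where it was called (adjusted p = 0.00463). The remaining kinesins had log2 changes from −0.18 to 0.17. Kif20a and Kif23, motors of the central spindle, were 11.07 ± 0.02 and 11.44 ± 0.05 in controls and 10.89 ± 0.07 and 11.25 ± 0.07 with miR-302 (adjusted p = 0.139 and 0.136). The others include Kif11, which pushes spindle poles apart and was 11.12 ± 0.02 and 11.02 ± 0.08, and Kif20b, the kinesin with the highest change, at 9.31 ± 0.10 and 9.48 ± 0.03 (adjusted p = 0.183).

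Of the 5 genes of spindle assembly and cytokinesis, 3 fell, a count of few genes beside 15.9% of genes of at least median level. Nusap1, a protein that bundles spindle microtubules, read 10.59, 10.63 and 10.59 in controls and 10.26, 10.14 and 9.98 with miR-302. The log2 change was −0.48 ± 0.09 (SE), 1.39-fold lower (adjusted p = 0.0141), and leaving out any 1 control array ended the call, with adjusted p from 0.0548 to 0.0587. Prc1, which crosslinks the microtubules of the central spindle, read 11.13, 11.11 and 11.02 in controls and 10.76, 10.69 and 10.62 with miR-302. Its log2 change was −0.40 ± 0.07 (SE), 1.32-fold lower (adjusted p = 0.0143). The call was lost without control replicate 1 or 2 or without miR-302 replicate 2 or 3 (adjusted p 0.0508 to 0.0619). Ckap2, a spindle pole protein gene, read 10.76, 10.67 and 10.73 in controls and 10.17, 10.42 and 10.41 with miR-302, and as for Pttg1 replicate 1 was the lowest array.

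The log2 change of Ckap2 was −0.39 ± 0.09 (SE), 1.31-fold lower (adjusted p = 0.0307), and −0.31 without miR-302 replicate 1, with the call lost without any 1 of the other arrays (adjusted p 0.0565 to 0.106). In none of these 3 genes did the groups overlap. Ect2, which activates RhoA at the division plane, was 12.23 ± 0.01 (SD, n = 3) and 12.06 ± 0.06 (adjusted p = 0.138). Tpx2, the Aurora A activator, was 10.45 ± 0.01 and 10.33 ± 0.13 (adjusted p = 0.399). The chromosome genes Top2a, which encodes topoisomerase II alpha, and Mki67, which encodes the proliferation marker Ki-67, were not called. Top2a read 11.59, 11.61 and 11.64 in controls and 11.46, 11.39 and 11.29 with miR-302 (log2 change −0.23 ± 0.07 SE, adjusted p = 0.0768), and it was called without miR-302 replicate 1 (adjusted p = 0.0328). Mki67 read 11.18, 11.20 and 11.20 in controls and 10.92, 11.14 and 11.13 with miR-302 (adjusted p = 0.350).

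**Figure D2:**
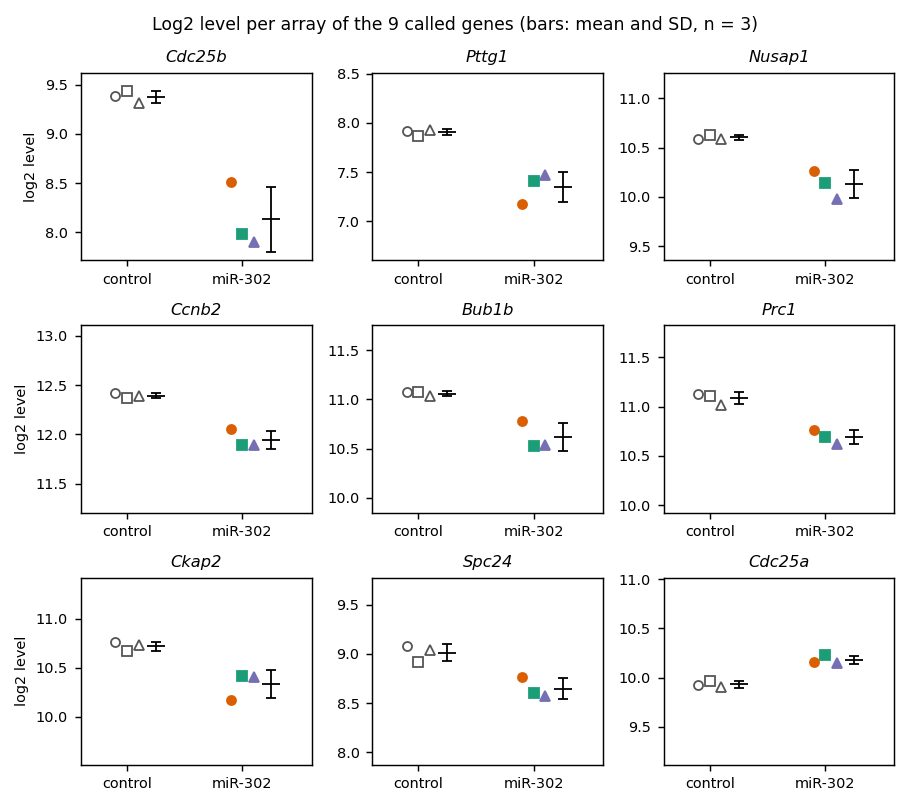
Log2 level of the 9 called genes in each array (y axis, the same span of log2 units in every panel), for the control hairpin and miR-302 groups (x axis). Symbols are arrays as in the plot of genes by role, and the bars are the mean and SD of 3 arrays. In 8 panels all miR-302 arrays lie below all control arrays and in the panel of Cdc25a above them, and miR-302 replicate 1 (filled circle) is the highest miR-302 array in 6 of those 8 panels and the lowest for Pttg1 and Ckap2.

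The miR-302 arrays were more spread than the control arrays. Over the 46 genes the median SD was 0.05 in controls and 0.07 with miR-302, and the miR-302 SD was the larger in 32 genes (69.6%). The same held for 71.3% of genes of at least median level. Replicate 1 was the highest of the miR-302 arrays in 28 of the 46 genes and the lowest in 6. Over all genes it was the highest in 39.0% and the lowest in 37.2%, and among all genes called lower the highest in 55.7%. Without this array 11 of the 46 genes were called lower, against 13.1% of all genes, and without any 1 of the others 3 or 4 were, against 4.70%, 4.80% and 4.74% of all genes for control replicates 1, 2 and 3 and 5.48% and 5.27% for miR-302 replicates 2 and 3. These shares are over genes of all levels, and those over genes of at least median level were not taken in these fits.

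Other settings of the fit called more mitosis genes. With an intensity trend and a robust prior together, 18 of the 46 were called lower (11.6% of all genes). They were the 8 genes above with Ccna2, Ttk, Nek2, Ndc80, Sgol1, Kif2c, Kif20a, Kif23, Ect2 and Top2a, whose adjusted p in that fit ran from 0.0115 to 0.0364 and whose log2 changes ran from −0.39 to −0.16. With the test limited to genes of at least the median level, 17 were called lower (22.4% of the 11090 genes tested, over which p-values were then adjusted). Of the mitosis genes Cdc25a alone was called higher in both fits, against 9.10% and 16.4% of the genes tested. Weights that let a less typical array count for less gave 13 genes lower, against 13.5% of all genes. miR-302 replicate 1 had a weight of 0.28 and the other arrays 1.15 to 1.48, so this fit is close to the one without that replicate. The shares of all genes in the trend and weight fits are over genes of all levels.

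**Figure D3:**
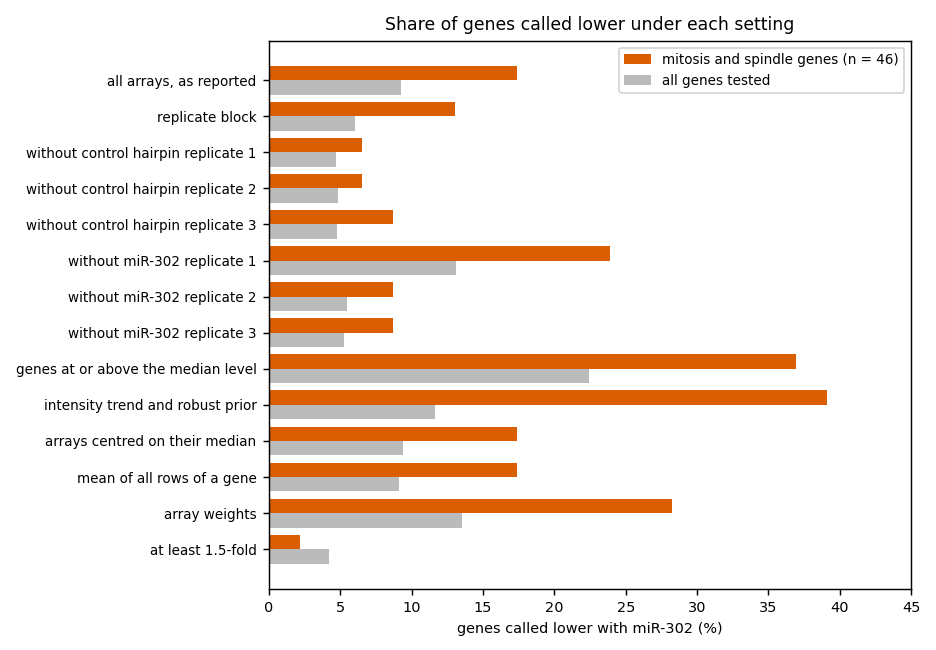
Share of genes called lower with miR-302 (x axis, percent) under each setting of the analysis (y axis), for the 46 mitosis and spindle genes and for all genes tested in that setting. With all arrays as reported the shares were 17.4% and 9.25%. Among genes of at least median level, where all 46 lie, that fit called 15.9% lower. The grey bars are over genes of all levels, except where the test was limited to genes of at least the median level. The orange bar is the longer in every setting except a minimum change of 1.5-fold, where only Cdc25b is left among the mitosis genes and 4.17% of all genes are called lower.

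A second list of 105 mitosis genes that are not among the 48 gave the wider setting, with 100 measured, all of at least median level. Of these 19 (19.0%) were lower, 4 higher and 77 not called, beside 15.9% lower and 10.9% higher over all genes of at least median level. The lower share is near that background, and the counts by sub-list below are descriptions of few genes each. Their median log2 change was −0.12, the same as that of the 46, but both lists were chosen with earlier results of these data known. Of 17 APC/C genes 3 rose and 1 fell: Cdc26, Anapc10 and Anapc16 had log2 changes of 0.61 ± 0.09, 0.58 ± 0.09 and 0.44 ± 0.08 (SE), and Anapc5 one of −0.49 ± 0.08. Cdc26 read 9.07, 9.20 and 9.10 in controls and 9.74, 9.62 and 9.85 with miR-302, with no overlap (adjusted p = 0.00553). The fourth gene of the list that rose was Zwint, a kinetochore gene (0.31 ± 0.07 SE). Anapc16 and Zwint were named after their values were seen. The call of Anapc16 held only without control replicate 2 or miR-302 replicate 1 among the fits without 1 array (adjusted p 0.0554 to 0.0603 in the others), and that of Zwint only without miR-302 replicate 1 (0.0743 to 0.103). Mitotic entry genes included Cks1b, a Cdk-binding subunit, which fell by 0.78 on the log2 scale (adjusted p = 0.0132; 0.0570 and 0.0526 without control replicates 1 and 3, which ends the call), and Ensa, an inhibitor of the phosphatase PP2A, with −0.46 ± 0.07 (SE). Of 22 spindle and centrosome genes 5 fell, among them Spag5, the spindle protein astrin (−0.47 ± 0.07 SE, adjusted p = 0.00689). Among 20 genes of the inner kinetochore and its microtubule-binding network 5 fell, and so did 3 of 16 condensin and cohesin genes, 2 of 5 cytokinesis genes and 1 of 5 MuvB and B-Myb genes, while none of 7 checkpoint partners was called.

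Genes of the preceding phase were set beside them. Of 44 measured DNA replication genes, 12 (27.3%) were called lower and 2 (4.55%) higher, again beside 15.9% and 10.9% of all genes of at least median level, with a median log2 change of −0.15. Those with the smallest p were the polymerase subunit genes Pold2 (−0.58 ± 0.07 SE), Pole2 (−0.49 ± 0.08) and Pola1 (−0.45 ± 0.08), the thymidine kinase gene Tk1 (−0.72 ± 0.09), the single-strand binding gene Rpa2 (−0.77 ± 0.13) and the origin gene Orc6, which was higher (0.39 ± 0.07; adjusted p = 0.0539 and 0.0516 without control replicates 1 and 3, which ends its call). Whether mitosis and replication genes differ in their change was not tested. The counts of both lists vary with the arrays: leaving out any 1 array except miR-302 replicate 1, 3 to 7 of the second mitosis list and 5 or 6 of the replication list were called lower, beside 4.70% to 5.48% of all genes, and leaving out that replicate 27 and 14 were, beside 13.1%. The shares in these fits are over genes of all levels.

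**Figure D4:**
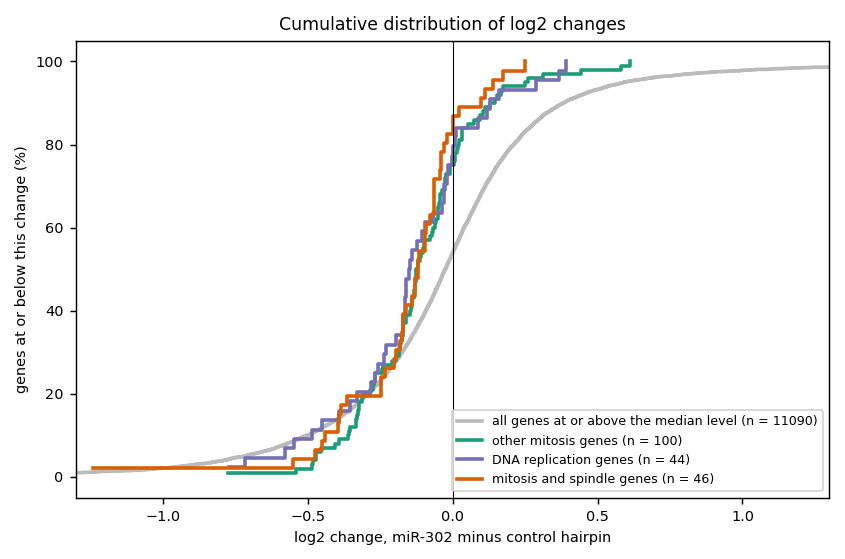
Cumulative share of genes (y axis, percent) by log2 change, miR-302 minus control hairpin (x axis), for the 46 mitosis and spindle genes, 100 other mitosis genes, 44 DNA replication genes and the 11090 genes of at least median level. The 3 cell cycle lists, with medians of −0.12, −0.12 and −0.15, rise more steeply than the grey line, whose median is −0.03, and genes beyond 1.3 in either direction are not drawn.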

How the data were processed

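Biotin-labelled total RNA of 6 samples was hybridised to single-colour arrays, per the labels' protocols. The authors deposited 33649 rows of RMA values, per the submitters' processing notes, taken here as log2 because RMA gives base 2. The RMA software and version and a genome build are not stated. RMA gives all arrays 1 distribution, which would hide a shift of all genes. No column was left without a sample, and no batch or scan date was used.

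Rows with 1 gene in the platform annotation were kept (23521, against 1814 with several and 8314 with none), and the row with the highest mean stood for a gene. The 22180 genes were compared by limma (version 3.58.1, R 4.3.3; lmFit and eBayes, two-sided) with Benjamini-Hochberg adjustment over all of them and a threshold of 0.05. The SE is limma's moderated one. Fits were tested on simulated data. Figures were drawn with matplotlib 3.10.9.

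The genes and lists were chosen with earlier results of these data known. Called genes and, in each role, the gene with the smallest p and that with the largest change are named with values, as are genes called only without miR-302 replicate 1 or with an intensity trend, and the 6 called genes of smallest p in the other lists. Other genes are named to complete a role or complex. The alternatives are those of the closing section.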

Additional observations from a re-analysis of the deposited data

How the results depend on the processing

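Leaving out each array in turn gave 3 to 11 mitosis genes lower and 0 to 1 higher (8 and 1 with all arrays), 3 to 27 and 2 to 4 of the second mitosis list (19 and 4), 5 to 14 and 0 to 2 of the replication list (12 and 2), and 1043 to 2911 and 685 to 2484 of all genes (2051 and 1592). The highest counts lower came without miR-302 replicate 1, and Cdc25b, Ccnb2 and Pttg1 were called in all 6 of these fits. The median log2 change of the mitosis genes stayed between −0.14 and −0.09 in them. An intensity trend with a robust prior gave 18 mitosis genes lower, 8 of the second list higher and 19 replication genes lower. Limiting the test to genes of at least the median level gave 17 mitosis genes lower, and array weights gave 13 and, over all genes, 2617 higher. A minimum change of 1.5-fold left 1 and 0 mitosis genes, 1 and 1 of the second list, 2 and 0 replication genes, and 925 lower and 636 higher of all genes. Centring arrays on their median left 0 mitosis genes higher.

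Same-numbered samples did not deviate together: the correlations of their deviations from the group means, across genes, were 0.02, 0.02 and 0.01, and control replicate 3 correlated best with miR-302 replicate 2. With the replicate number as a block, 6 mitosis genes were lower and 0 higher, with the calls of Spc24 (adjusted p = 0.0571), Ckap2 (0.0794) and Cdc25a (0.102) lost, 8 of the second list lower, 6 replication genes lower and 0 higher, and 1329 lower and 964 higher of all genes. No called mitosis gene changed direction under any of these alternatives, but this is little check. The groups of these genes did not overlap, so leaving out or weighting arrays could not reverse a difference of means. The block, trend, median-level and 1.5-fold settings left the log2 change itself as it was. Signal over background was not measured here.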
